A study of Mus musculus with 12 samples.

Results

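The question asked of these arrays is where the effect of losing 1 copy of TonEBP differs between the compartments of the mouse lumbar disc. The measurements come from the annulus fibrosus (AF), the fibrous outer ring of the disc, and from the nucleus pulposus (NP), its gel-like core. For each transcript cluster, the unit that the array reports for a gene, the genotype effect is the mean log2 signal of TonEBP +/- minus that of WT. The interaction is the genotype effect in NP minus the genotype effect in AF. An interaction above 0 means that TonEBP +/- moved the gene up in NP relative to AF, and one below 0 that it moved it down in NP relative to AF. All 22206 transcript clusters that are not controls were fitted, and the results are read for the 7949 of them (35.8%) that lay clearly above background in both tissues. A cluster entered this set where its mean over the 6 arrays of a tissue exceeded the mean 95th percentile of the background probe sets on those arrays, which was 7.87 log2 in AF and 7.20 in NP. Of the 7949, 381 lay within 0.1 log2 above that level in at least 1 tissue, and 6808 had a gene symbol.

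There were 12 Clariom S Mouse arrays, 3 for each of 4 groups: AF of WT, AF of TonEBP +/-, NP of WT and NP of TonEBP +/-. All animals were C57BL/6 mice of 12 months, and the TonEBP +/- mice carried 1 functional copy of Nfat5, the gene that encodes TonEBP. The labels name no tissue-specific driver, so the haploinsufficiency is taken to be present in every cell of the mouse, blood and marrow included. Each sample was the pooled disc tissue of 1 animal, and the labels do not say which AF and NP samples came from the same mouse.

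TonEBP is a transcription factor of the Rel family that cells use to adapt to high osmolarity. The healthy NP is avascular and hyperosmotic, because its aggrecan carries fixed charge that draws in water, and its cells descend from the notochord. The AF is built of aligned collagen layers and borders the vertebral bone, ligament and vessels. Neutrophil granule proteins and erythroid membrane proteins are made largely in blood-forming cells of the marrow, and the phagocyte oxidase in neutrophils and macrophages. Whether disc cells also make them was not tested here.

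Nfat5 itself, the gene with a lost copy, showed no interaction that passed the test. Its log2 signals were 7.70, 8.69 and 9.93 in AF of WT and 8.91, 8.94 and 8.74 in AF of TonEBP +/-. In NP they were 9.12, 8.80 and 8.34 in WT against 9.06, 9.62 and 9.09 in TonEBP +/-. The groups overlapped in both tissues, and the WT arrays of AF spanned more than 2 log2. The interaction was 0.42 (SE 0.57, 95% confidence interval -0.79 to 1.63, limma adjusted p = 0.807), and without AF WT array 3 it was -0.16 (adjusted p = 0.913). The array therefore does not check the genotype labels.

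The tissue labels were checked against defining markers. Of 7 measured NP markers, 6 were higher in NP than in AF in both genotypes, among them Krt8, Krt19 and Shh, and Car12 was above background on no array. Of 8 AF markers, 6 lay on the side of AF in both genotypes, although Tnmd, Scx and Mkx were above background on no array and Fmod was higher in NP. The median array signal lay between 7.43 and 7.64 log2 in AF and between 6.82 and 6.87 in NP. The median SD of the 7949 clusters within a group was 0.443 in AF of TonEBP +/- against 0.225 to 0.281 in the other groups. Array 3 of that group had a wider spread of signals than the other AF arrays (interquartile range 3.11 against 2.36 to 2.66 log2), and without it 19 of the 33 called genes followed below were still called. With 3 arrays a group, the number of arrays limits the precision. The median SE of an interaction was 0.39 log2, and the smallest interaction that was called measured 1.35.

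The interaction was called, at a limma adjusted p under 0.05 over all 22206 clusters, for 125 of the 7949 clusters, or 1.57% of them, against 0.887% of all clusters (0.766% below 0 and 0.122% above 0). At an unadjusted p under 0.05 there were 1650. Of the 125, 106 lay below 0 and 19 above 0, which is 1.33% and 0.239% of the 7949. The median interaction of the 7949 was -0.17, and 61.0% of them lay below 0. Adjusted p-values of the called clusters ran from 0.00687 to 0.0497, so that many lie close to the threshold, and 89 clusters with an interaction of more than 2 in size were not called. A gene symbol was available for 110 of the called clusters.

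The 106 clusters called below 0 mostly had mean effects of opposite sign in the tissues. In 104 of them the mean was higher in AF of TonEBP +/- than in AF of WT and lower in NP of TonEBP +/- than in NP of WT. These signs were found in 2216 of the 7949, and a call below 0 favours them, so nothing is read from the count of 104. The median genotype effect of the 106 was 1.34 in AF and -1.54 in NP. The share of the change that each tissue carried varied: AF carried more than 66.7% of it in 25 clusters, NP did so in 22, and the other 59 were shared. Taken alone, the AF effect was called for 60 of the 106, the NP effect for 17, both for 2 and neither for 31. Over all 22206 clusters, 6.07% had a called AF effect (2.76% a rise and 3.31% a fall) and 0.113% a called NP effect. A call for the interaction favours such effects, so nothing is read from these counts. In 66 of the 106 the genotypes overlapped in neither tissue. Over all clusters, 1.22% lay higher in AF and lower in NP without overlap, and since the call favours such clusters, nothing is read from that count.

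The 19 clusters called above 0 are given in the same terms. All 19 had a called fall in AF (3.31% of all 22206 clusters had one), and their median genotype effect was -1.81 in AF and 0.20 in NP. A call above 0 favours a fall in AF, so nothing is read from that count. None had a called effect in NP. Over all clusters the 25 called NP effects were all falls, so nothing is read from that absence. AF carried more than 66.7% of the change in 15 of them. The genotypes were apart in AF in all 19 and in NP in 7 (22.3% and 11.3% of all clusters were apart in these tissues in either direction). The call favours such clusters too, so these counts are not read further. The median of NP minus AF went from -3.20 in WT to -5.95 in TonEBP +/- in the 106 clusters, and from 3.34 to 5.42 in the 19. A call for the interaction fixes the direction of this shift, so nothing is read from it. In WT, NP lay above AF in 6 of the 106 and in 15 of the 19.

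**Figure D1:**
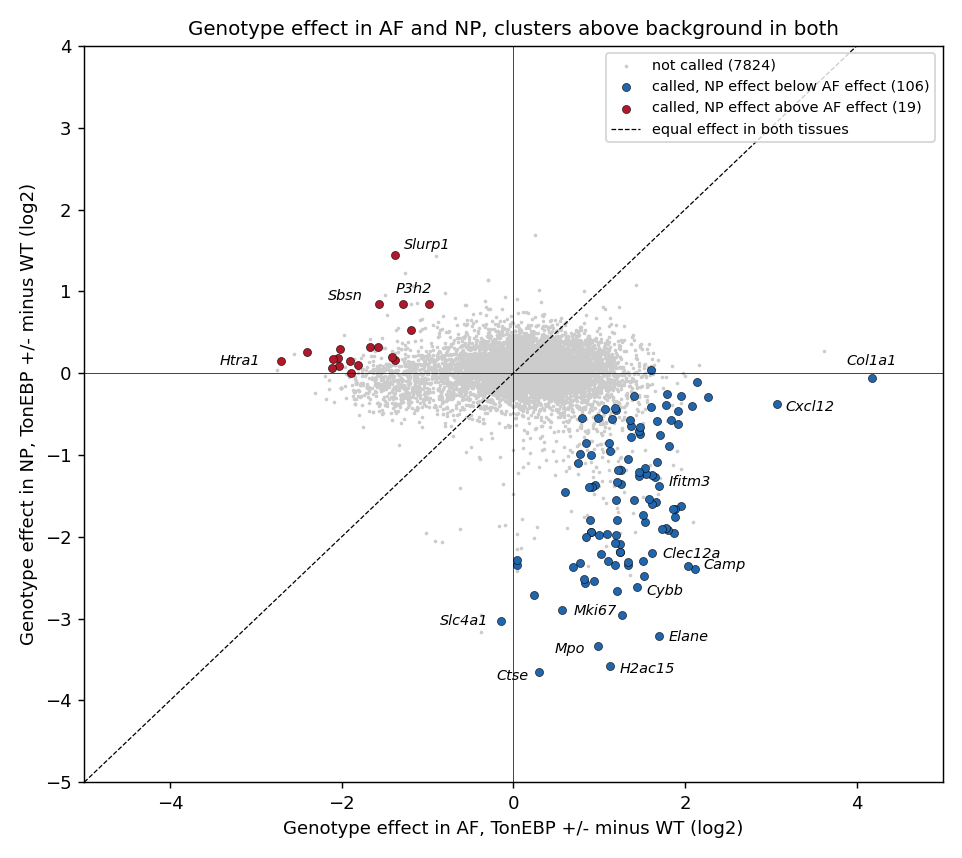
Genotype effect (TonEBP +/- minus WT, log2) in AF on the horizontal axis and in NP on the vertical axis, with 1 point for each of the 7949 clusters above background in both tissues. Blue points are the 106 clusters called with an interaction below 0 and red points the 19 called above 0. The blue points lie right of 0 and below 0 in 104 cases, and the red points lie left of 0.

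Neutrophil and myeloid precursor genes gave the lowest interaction, that of Elane, and several of the next lowest. Elane, which encodes neutrophil elastase, Mpo, which encodes myeloperoxidase, and Camp, which encodes the cathelicidin of neutrophil granules, were all lower in NP and higher in AF of TonEBP +/- than in WT, with interactions of -4.91, -4.31 and -4.50. Of 22 listed markers, 22 were measured and 16 lay above background in both tissues. Of these 16, 8 were called below 0 (Elane, Camp, Mpo, Ltf, Chil3, Cd177, Lyz2 and Prtn3), none above 0 and 8 were not called. The median interaction of the 16 was -2.89, against -0.17 for the 7949, and all 16 had a mean that was higher in AF and lower in NP of TonEBP +/-. Since tissue was sampled in bulk, fewer cells of a type and less RNA per cell cannot be told apart.

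For Elane, the AF arrays read 15.17, 14.88 and 16.26 log2 in WT against 16.76, 17.01 and 17.63 in TonEBP +/-. The NP arrays read 11.38, 12.76 and 11.81 in WT against 9.03, 7.38 and 9.92 in TonEBP +/-. Every array of TonEBP +/- lay above every WT array in AF, and every one lay below in NP. The interaction of -4.91 (SE 0.75, 95% confidence interval -6.49 to -3.33, adjusted p = 0.0109) corresponds to a 30.0-fold difference between the genotype ratios of the tissues. Its parts were an AF effect of 1.70 that did not pass the test on its own (adjusted p = 0.0659) and an NP effect of -3.21 that did (adjusted p = 0.0274).

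Mpo was nearer to the upper end of the scale in AF, where its signals were 17.72, 17.27 and 18.23 in WT against 18.70, 18.52 and 18.95 in TonEBP +/-. In NP they were 13.26, 13.87 and 13.05 in WT against 10.26, 8.82 and 11.11 in TonEBP +/-. The genotypes were apart in both tissues, and NP carried most of the interaction of -4.31 (SE 0.61, adjusted p = 0.00872), with an NP effect of -3.33, or 10.1-fold lower (adjusted p = 0.0079), against an AF effect of 0.98 (adjusted p = 0.183).

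Camp divided its change nearly evenly between the tissues. Its AF signals were 13.86, 13.91 and 14.27 in WT against 15.89, 15.60 and 16.88 in TonEBP +/-, a called rise of 2.11 (adjusted p = 0.026). Its NP signals were 9.48, 10.15 and 7.52 in WT against 6.92, 6.34 and 6.71 in TonEBP +/-. Those last 3 arrays lay at background, so the interaction of -4.50 (SE 0.70, adjusted p = 0.0109) was recomputed with that group set at its background level, which gave -3.98. Prtn3, the gene of proteinase 3, had the same limit, with -2.68 (adjusted p = 0.0415) as measured and -2.25 at the background level.

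The other called granule and myeloid genes moved by similar amounts. Ltf, the gene of lactoferrin, had an interaction of -3.99 (adjusted p = 0.0192), Chil3, a chitinase-like protein of myeloid cells, -3.87 (adjusted p = 0.0223), Cd177, a neutrophil surface glycoprotein, -3.55 (adjusted p = 0.0452), and Lyz2, the lysozyme of myeloid cells, -3.49 (adjusted p = 0.0159). Their AF effects ran from 0.94 (Lyz2) to 1.89 (Cd177), none called, and their NP effects from -2.67 (Chil3) to -1.66 (Cd177), of which Lyz2 was called (-2.54, adjusted p = 0.0289). The NP genotypes of Cd177 overlapped.

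The markers that were not called included the most abundant transcripts of mature neutrophils. S100a8 and S100a9, which form calprotectin, had interactions of -2.26 (adjusted p = 0.189) and -2.22 (adjusted p = 0.149), with NP effects of -2.02 and -2.13 and AF effects of 0.24 and 0.08. Ngp and Lcn2, both secondary granule genes, had interactions of -2.19 (adjusted p = 0.156) and -2.40 (adjusted p = 0.216). In AF both read 19.88 on average in WT against 19.93 in TonEBP +/-, which is the array maximum, and S100a8 and S100a9 read 19.61 to 19.91. A rise in AF of these 4 genes could not have been seen at that signal.

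The averaged log2 signal of all 22 markers separated the 4 groups. The WT arrays of AF stood at 14.26 to 14.73 and the TonEBP +/- arrays of AF at 15.30 to 16.12, while NP gave 10.07 to 11.34 with WT and 8.02 to 9.61 with TonEBP +/-. The genotypes did not overlap in either tissue. In NP, 19 of the 22 were above background on all 3 arrays of WT and 11 on all 3 of TonEBP +/-, while 3 and 8 were above it on none.

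Clec12a and Ly6c2 were the 2 clusters below 0 whose effect was called in each tissue separately and in opposite directions. Clec12a, an inhibitory lectin receptor of myeloid cells, read 13.66, 12.60 and 13.62 in AF of WT and 14.81, 14.48 and 15.43 in AF of TonEBP +/-. In NP it read 10.26, 10.45 and 9.56 in WT against 8.18, 7.22 and 8.29 in TonEBP +/-. It rose 3.06-fold in AF (adjusted p = 0.0243) and fell 4.58-fold in NP (adjusted p = 0.0289), with an interaction of -3.81 (SE 0.52, adjusted p = 0.00687). Ly6c2, a surface antigen of monocytes and granulocyte precursors, read 15.46, 14.87 and 15.70 in AF of WT and 16.79, 16.20 and 17.06 in AF of TonEBP +/-. In NP it read 11.91, 11.77 and 10.81 in WT against 9.72, 8.53 and 9.23 in TonEBP +/-. Its rise in AF was 2.53-fold (adjusted p = 0.0389), its fall in NP 5.06-fold (adjusted p = 0.0187) and its interaction -3.68 (SE 0.50, adjusted p = 0.00687). No array of one genotype crossed into the range of the other in either tissue for these genes. Ly6c2 has the close paralog Ly6c1, which was also called (-2.97), and the probes of such paralogs may share signal.

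**Figure D2:**
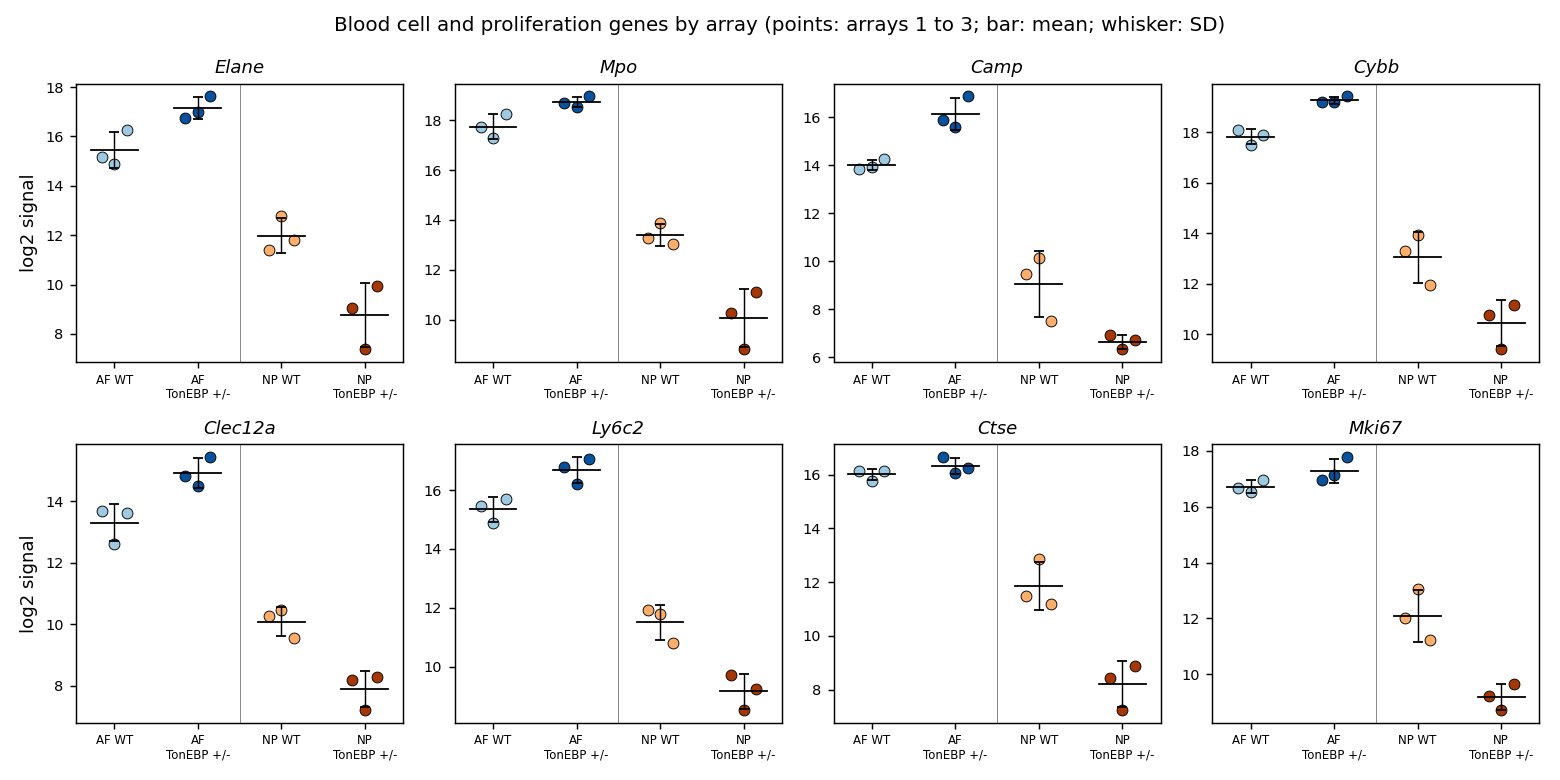
Log2 signal (vertical axis) of Elane, Mpo, Camp, Cybb, Clec12a, Ly6c2, Ctse and Mki67 on each of the 12 arrays, by group (horizontal axis), with the mean as a bar and the SD as a whisker (n = 3). In NP the TonEBP +/- points lie below all WT points in each panel, and in AF they lie above them except for Ctse and Mki67, whose AF groups overlap. Camp in NP of TonEBP +/- lies at 6.34 to 6.92, at background.

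The phagocyte NADPH oxidase, which makes superoxide in neutrophils and macrophages, had 4 called subunits. Its subunits were gathered after these values had been seen. The 4 called below 0, of 5 measured, were the cytosolic organizer Ncf1 (-4.39, SE 0.79, adjusted p = 0.0192), the membrane subunit Cybb (-4.06, SE 0.63, adjusted p = 0.0109), the GTPase Rac2 (-3.64, adjusted p = 0.0167) and Ncf4 (-3.24, adjusted p = 0.0109). The other membrane subunit, Cyba, is also made outside phagocytes and was not called (-1.96, adjusted p = 0.111), with an AF effect of 1.53 and an NP effect of -0.43.

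For Cybb, the AF signals were 18.08, 17.51 and 17.91 in WT against 19.19, 19.21 and 19.43 in TonEBP +/-, and the NP signals 13.28, 13.92 and 11.95 in WT against 10.75, 9.40 and 11.14 in TonEBP +/-. For Ncf1 they were 15.47, 13.57 and 14.11 against 16.47, 15.73 and 17.07 in AF, and 11.92, 11.36 and 9.73 against 8.57, 7.93 and 9.45 in NP. Both genes kept the genotypes apart in both tissues. Cybb stood 6.14-fold lower in NP of TonEBP +/- (adjusted p = 0.0324), and Ncf1 4.10-fold higher in AF (adjusted p = 0.0425).

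Other genes of leukocytes, also gathered after the values were seen, followed. The beta 2 integrin family had 2 members above background in both tissues, Itgam (-3.82, adjusted p = 0.0159) and Itgb2l (-3.67, adjusted p = 0.0157), and both were called. Of 4 blood lineage transcription factors, 3 were called below 0: Spi1, which encodes PU.1 (-3.34, adjusted p = 0.0408), Fli1 (-2.44, adjusted p = 0.0191) and Ikzf1 (-2.27, adjusted p = 0.0306). Runx1, which skeletal cells also express, was not (-1.04, adjusted p = 0.273). Ptprc, the pan-leukocyte antigen CD45, had an interaction of -3.11 (adjusted p = 0.019) and Fcgr3, an Fc receptor, -3.35 (adjusted p = 0.016).

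PU.1 binds a purine-rich core, and TonEBP binds an element whose core is TGGAAA, so the promoters of the called genes were searched for both. The letters searched were GAGGAA, which reads as TTCCTC on the other strand, for the core of PU.1, and TGGAAA, which reads as TTTCCA there, for that of TonEBP. Both strands were searched, over the 250 bases before each RefSeq start of GRCm38.p6. The motifs share the letters GGAA and were chosen after the results were seen. Promoters were found for 72 of the 94 named genes below 0 and 11 of the 16 above 0. GAGGAA stood in 31 of the 72 (43.1%) and 4 of the 11 (36.4%). It stood in 25.6% of the 5577 genes read here with a promoter, in 25.9% of all 27025 genes with one and in 23.3% of all windows counted singly. TGGAAA stood in 15 of the 72 (20.8%) and 1 of the 11 (9.09%), against 17.9%, 20.9% and 18.6% in the same order. Windows of 60 bases are shown for 2 called granule genes, Elane and Mpo, for both genes called in each tissue, and for the 1 gene above 0 with the TonEBP core. Each is given 5′ to 3′ on the strand of the gene, and capitals mark the match. A match is a description of these letters and not a site shown to be bound.
Elane, chr10:79886200-79886259, plus strand: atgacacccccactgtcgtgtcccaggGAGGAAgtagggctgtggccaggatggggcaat
Mpo, chr11:87793534-87793593, plus strand: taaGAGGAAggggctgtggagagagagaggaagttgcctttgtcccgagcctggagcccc
Clec12a, chr6:129350156-129350215, plus strand: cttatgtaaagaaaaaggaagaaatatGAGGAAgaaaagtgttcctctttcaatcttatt
Ly6c2, chr15:75112047-75112106, minus strand: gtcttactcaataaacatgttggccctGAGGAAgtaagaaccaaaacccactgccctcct
Anxa8, chr14:34085783-34085842, plus strand: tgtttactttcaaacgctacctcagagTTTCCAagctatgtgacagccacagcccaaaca
The windows of Mpo and Clec12a hold a further match each, left in lower case. The match of Elane begins 85 bases before the start of the gene and that of Anxa8, on the other strand, 169 bases before.

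Erythroid genes formed the clearest case of a change carried by NP. Of 8 listed markers above background in both tissues, 2 were called below 0, Ctse and Slc4a1, and 6 were not. The median of the 8 was -1.46 for the interaction, -0.01 for the AF effect and -1.82 for the NP effect. Ctse encodes cathepsin E, an aspartic protease that red cell precursors hold, and Slc4a1 the band 3 anion exchanger of the red cell membrane.

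Ctse read 16.13, 15.78 and 16.16 in AF of WT and 16.66, 16.08 and 16.24 in AF of TonEBP +/-, so the genotypes overlapped there. In NP it read 11.50, 12.86 and 11.19 in WT against 8.45, 7.24 and 8.90 in TonEBP +/-, with no overlap. The interaction was -3.96 (SE 0.59, adjusted p = 0.0109), and the NP effect alone was a 12.6-fold fall (adjusted p = 0.00383).

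Slc4a1 had the same shape, at 15.65, 15.87 and 16.20 against 16.38, 15.37 and 15.54 in AF, and 11.84, 13.21 and 10.95 against 9.06, 8.89 and 8.96 in NP. NP carried the interaction of -2.88 (SE 0.59, adjusted p = 0.0331), with an 8.16-fold fall (adjusted p = 0.0109). The call of Slc4a1 was kept in 2 of the 12 omissions of an array. It was lost under quantile normalization over all 12 arrays (-2.06, limma adjusted p = 0.103) and within each tissue (-2.33, adjusted p = 0.0903). Rhag, of the red cell Rh complex, and Car2, a carbonic anhydrase, lay in the same direction without passing (-1.88 and -1.70, adjusted p = 0.1 and 0.0992), and the transferrin receptor Tfrc lay near 0 (-0.42, adjusted p = 0.669). Averaged over the 16 measured erythroid markers, the NP arrays were at 8.45 to 9.44 log2 in WT against 7.36 to 7.68 in TonEBP +/-, and the AF arrays overlapped at 11.83 to 11.96 and 11.56 to 12.21.

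Proliferation genes were also called below 0. Of 13 cell cycle genes above background in both tissues, 4 were called below 0 and all 13 had a mean higher in AF and lower in NP of TonEBP +/-, with a median interaction of -1.43. Mki67, the proliferation antigen, read 16.66, 16.54 and 16.96 in AF of WT and 16.95, 17.15 and 17.78 in AF of TonEBP +/-. In NP it read 12.02, 13.06 and 11.22 in WT against 9.23, 8.73 and 9.65 in TonEBP +/-. Its genotypes overlapped slightly in AF and were far apart in NP, where it fell 7.44-fold (adjusted p = 0.0079), and its interaction was -3.47 (SE 0.54, adjusted p = 0.0109).

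Rrm2, a subunit of ribonucleotide reductase, changed by similar amounts in the tissues: 12.11, 11.72 and 12.12 against 13.24, 12.74 and 13.61 in AF, and 8.57, 9.14 and 8.07 against 7.35, 6.91 and 7.51 in NP. Its interaction was -2.55 (SE 0.42, adjusted p = 0.0149), with a called 2.32-fold rise in AF (adjusted p = 0.0295) and an NP effect 2.52-fold lower that did not pass on its own (adjusted p = 0.127). Stmn1, which regulates microtubules, had an interaction of -2.32 (adjusted p = 0.0159). The mitotic kinase gene Plk1 had -2.41 (adjusted p = 0.0402), or -2.01 with its background arrays set at the background level. Members of the replication licensing complex lay closer to 0, with Mcm4 at -0.96, Mcm2 at -0.78 and Mcm6 at -0.38, none called. Over all 30 measured cell cycle genes, 14 were above background on all 3 NP arrays of WT and 8 on all 3 of TonEBP +/-.

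Replication-dependent histone genes, which are transcribed in S phase, gave more called clusters than any of the gene lists and were also the largest group. By share, 34.7% of those above background in both tissues were called, against 1.57% of the 7949 and 50.0% of the neutrophil and myeloid precursor markers. This family was picked by symbol after the values were seen. Of 54 measured, 49 lay above background in both tissues, 17 of these were called below 0 and none above, and 47 of the 49 had an interaction below 0, with a median of -2.20. H2ac15, an H2A gene, led them at 16.15, 15.56 and 15.98 against 17.37, 15.94 and 17.77 in AF, and 13.12, 13.88 and 10.34 against 9.44, 7.71 and 9.46 in NP. Its WT arrays in NP spanned more than 3 log2, and its interaction of -4.71 carried an SE of 1.00 (adjusted p = 0.0388). The others included the H3 genes H3c11 (-3.64) and H3c10 (-3.53), the linker histone H1f1 (-3.34) and the H4 gene H4c1 (-2.78). Histone genes are near-identical copies, and 4 of the measured ones share their values with another cluster, so the count of 17 is not a count of independent genes.

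Interferon response genes and MHC class I genes were called in part. Of 11 interferon response genes, 2 were called below 0. Of the 11, 10 had an interaction below 0 and 1 above, with a median of -0.62 against -0.17 for the 7949. Ly6e, a surface protein that interferon induces and leukocytes also carry, had an interaction of -4.23 (SE 0.71, adjusted p = 0.0159), with a called 7.77-fold fall in NP (adjusted p = 0.0324). Ifitm3, an antiviral membrane protein, had -3.08 (SE 0.62, adjusted p = 0.0313), with a called 3.26-fold rise in AF (adjusted p = 0.0345). In NP of TonEBP +/- Ifitm3 read 6.72, 6.32 and 7.57 and was above background on 1 of 3 arrays. The NP part of its interaction therefore rests on signals near background. Ly6e read 16.84, 16.41 and 17.08 against 17.98, 17.78 and 18.38 in AF, and 12.67, 13.63 and 11.99 against 10.66, 8.29 and 10.47 in NP. Some classic induced genes were not called, with Ifit2 at -0.03 (adjusted p = 0.988), Ifih1 at -0.29 and Ifit3 at 0.87 (adjusted p = 0.597). Of 8 class I presentation genes, gathered after the values were seen, B2m (-2.56, adjusted p = 0.0207) and H2-D1 (-1.53, adjusted p = 0.0353) were called, and AF carried most of the change in B2m, with an AF effect of 2.27 and an NP effect of -0.29.

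The actin genes gave 1 call, Lcp1, the leukocyte plastin that bundles actin. Its signals were 16.84, 15.52 and 16.01 against 17.36, 17.47 and 18.08 in AF, and 13.78, 13.83 and 12.02 against 11.32, 9.38 and 12.06 in NP. The genotypes overlapped in NP, and the interaction was -3.81 (SE 0.82, adjusted p = 0.0408). The 32 actin genes had a median interaction of -0.91 and 28 lay below 0, with Arpc1b at -1.91 (adjusted p = 0.0735), talin Tln1 at -1.46 (adjusted p = 0.0512) and Actb at -0.21 (adjusted p = 0.802). Lcp1 is a leukocyte gene, and the part of leukocyte content in its interaction was not tested.

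**Figure D3:**
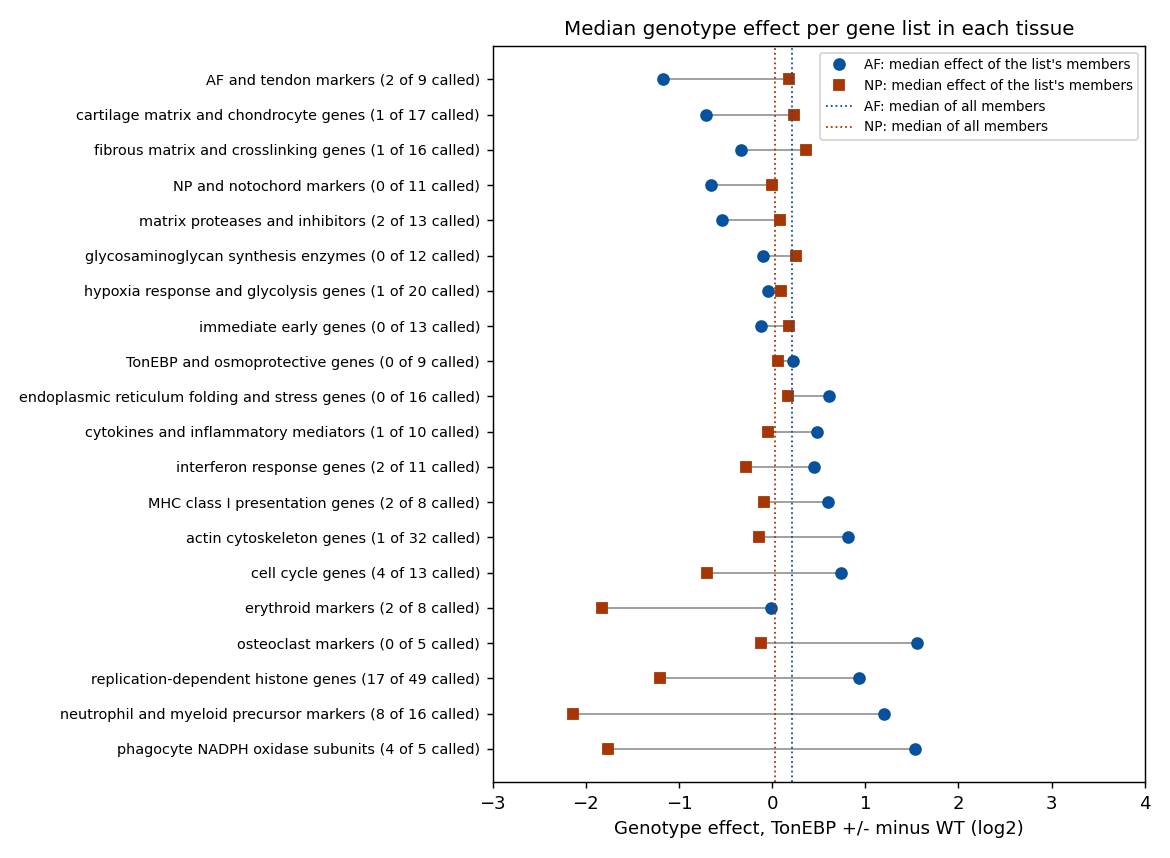
Median genotype effect (TonEBP +/- minus WT, log2, horizontal axis) of the members of each gene list above background in both tissues, in AF (blue circles) and NP (brown squares), with the medians of all 7949 clusters as dotted lines at 0.21 and 0.03. Counts called are in brackets. In the matrix lists at the top AF lies left of NP, and in the blood, histone and cell cycle lists at the bottom AF lies right of NP.

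The genes called above 0 included Htra1 and Acan, which kept their call in every omission. Htra1, a secreted serine protease that cleaves matrix proteins, and Acan, which encodes aggrecan, the main proteoglycan of the NP, fell in AF of TonEBP +/- and did not pass in NP. For Htra1, the AF signals were 14.55, 13.90 and 14.12 in WT against 11.05, 11.55 and 11.87 in TonEBP +/-. The NP signals were 18.29, 18.35 and 18.41 in WT against 18.42, 18.52 and 18.54 in TonEBP +/-. The genotypes lay far apart in AF and close together in NP. The interaction was 2.85 (SE 0.35, 95% confidence interval 2.11 to 3.58, adjusted p = 0.00687), and the fall in AF was 6.51-fold (adjusted p = 0.000161).

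Acan read 16.44, 16.69 and 16.71 in AF of WT and 14.76, 14.47 and 14.50 in AF of TonEBP +/-, a 4.09-fold fall (adjusted p = 0.000331). In NP it read 19.46, 19.46 and 19.22 in WT against 19.46, 19.46 and 19.50 in TonEBP +/-. The NP signals lay 0.43 to 0.71 below the highest signal of their arrays, so that a rise in NP had little room on this scale. The interaction was 2.13 (SE 0.29, adjusted p = 0.00687). All 17 cartilage matrix and chondrocyte genes had an interaction above 0, with a median of 0.93, and Acan was the 1 that was called. Averaged over the 25 measured genes of this list, the AF genotypes overlapped. The WT arrays of AF stood at 10.72 (array 1), 12.20 and 12.42 log2 and its TonEBP +/- arrays at 10.63 to 11.42. Sox9, the transcription factor that drives Acan, was at 1.73 (adjusted p = 0.158) and Col2a1, the type II collagen, at 1.40 (adjusted p = 0.509).

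Fmod and Fn1 were called above 0 among genes of fibrous tissue. Fmod, the gene of fibromodulin, a proteoglycan that binds collagen fibrils, read 14.51, 14.78 and 14.65 against 13.08, 12.00 and 12.55 in AF, and 17.77, 18.21 and 18.50 against 18.27, 18.65 and 18.08 in NP. It fell 4.31-fold in AF (adjusted p = 0.00451) and overlapped in NP, with an interaction of 2.28 (SE 0.40, adjusted p = 0.0173). Fn1, the gene of fibronectin, had an interaction of 1.89 (SE 0.37, adjusted p = 0.0267) and a 2.98-fold fall in AF (adjusted p = 0.0109), from 17.04, 17.98 and 17.77 to 15.81, 16.31 and 15.95. Of 16 fibrous matrix and crosslinking genes, 15 lay above 0 and Fn1 alone was called. The type VI collagen gene Col6a2 was just outside (1.61, adjusted p = 0.0506), and the collagen chaperone Serpinh1 was the 1 below 0 (-1.27, adjusted p = 0.183).

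Type I collagen went the opposite way. Col1a1 read 14.87, 10.92 and 13.82 in AF of WT and 17.17, 17.32 and 17.65 in AF of TonEBP +/-, and 8.55, 8.71 and 8.19 against 8.63, 8.78 and 7.87 in NP. Its rise in AF was 18.1-fold (adjusted p = 0.00772), and the WT arrays of AF differed from each other by nearly 4 log2. The interaction was -4.23 (SE 0.91, 95% confidence interval -6.17 to -2.30, adjusted p = 0.0412), and AF carried 98.8% of the change. Cxcl12, a chemokine that stromal cells use to hold blood-forming cells, shared this shape, at 14.90, 12.74 and 14.14 against 16.08, 16.66 and 18.24 in AF and 12.14, 11.45 and 11.74 against 11.77, 11.32 and 11.11 in NP. Its rise in AF was 8.38-fold (adjusted p = 0.0111) and its interaction -3.44 (SE 0.72, adjusted p = 0.0372). Of the 9 AF and tendon markers above background in both tissues, Fmod was called above 0 and Col1a1 below 0, and 7 were not called.

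Markers of other cell types were read beside these genes. The averaged signal of 13 osteoclast markers stood at 8.05 to 9.30 log2 on the WT arrays of AF and 9.64 to 10.89 on its TonEBP +/- arrays, and NP gave 6.93 to 7.07 with WT and 6.55 to 6.88 with TonEBP +/-. None of the 5 that lay above background in both tissues was called, with Mmp9 at -3.91 (adjusted p = 0.0847) and Ctsk at -3.35 (adjusted p = 0.181). The 22 neutrophil markers also stood higher in AF of TonEBP +/-, at 15.30 to 16.12 against 14.26 to 14.73 in WT. The averaged NP and notochord markers stood at 9.89 on AF WT array 1, at 8.67 and 8.68 on the other WT arrays of AF and at 8.48 to 8.85 on its TonEBP +/- arrays. Without AF WT array 1 the interactions of Htra1 and Acan were 2.67 (adjusted p = 0.01) and 2.21 (adjusted p = 0.0101), both still called. The part of these cell types in the AF changes was not tested.

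**Figure D4:**
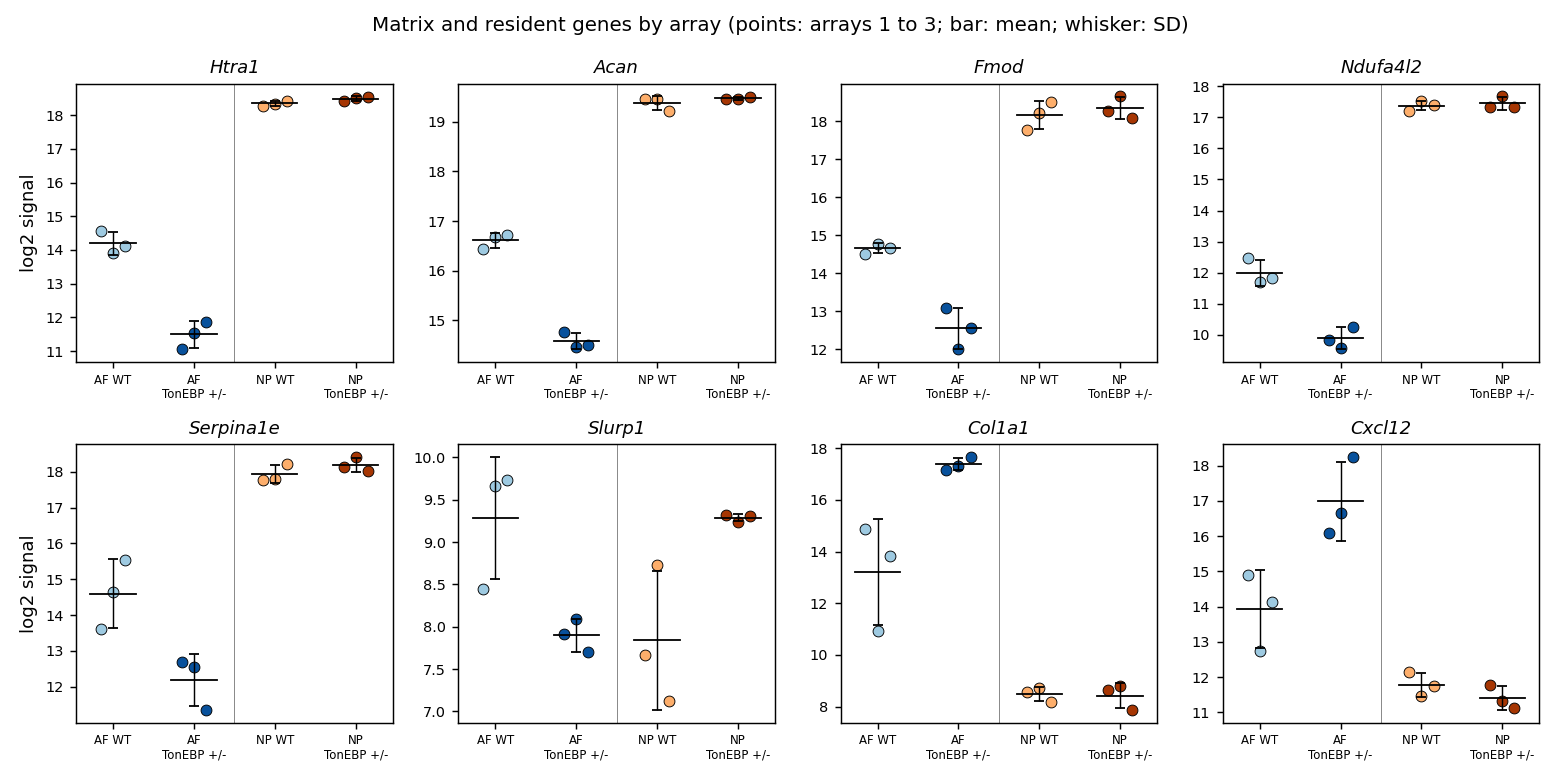
Log2 signal (vertical axis) of Htra1, Acan, Fmod, Ndufa4l2, Serpina1e, Slurp1, Col1a1 and Cxcl12 on each of the 12 arrays, by group (horizontal axis), with the mean as a bar and the SD as a whisker (n = 3). The first 6 are lower in AF of TonEBP +/- than in AF of WT and the last 2 higher. In NP the genotypes lie close together except for Slurp1, whose TonEBP +/- arrays read 9.24 to 9.32 and whose WT arrays read 7.12 to 8.73.

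The other genes called above 0 included several that the NP holds at a high level. Serpina1e, an alpha-1 antitrypsin paralog and protease inhibitor, read 13.60, 14.64 and 15.53 against 12.69, 12.54 and 11.35 in AF, and had an interaction of 2.66 (SE 0.58, adjusted p = 0.0421). Its paralogs Serpina1a, Serpina1b, Serpina1c and Serpina1d lay at 1.30, 1.95, 0.43 and 0.97 and were not called, and since these copies are nearly identical, signal may pass between their probes. Anxa8, an annexin, had 2.31 (SE 0.49, adjusted p = 0.0394), Cdon, a receptor that binds hedgehog ligands, 2.22 (SE 0.45, adjusted p = 0.0313) and P3h2, which hydroxylates prolines of collagen, 2.13 (SE 0.44, adjusted p = 0.0351). Ndufa4l2, a hypoxia-induced mitochondrial protein, fell 4.32-fold in AF (adjusted p = 0.00185), from 12.48, 11.70 and 11.82 to 9.82, 9.57 and 10.27, and had an interaction of 2.18 (SE 0.36, adjusted p = 0.0157). Among 20 hypoxia and glycolysis genes it was the 1 called, with Bnip3 at 0.87 (adjusted p = 0.288), Vegfa at 0.67 (adjusted p = 0.626) and Ldha at 0.13 (adjusted p = 0.928).

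Slurp1 was the gene called above 0 with the largest part in NP. This secreted protein of the Ly6 family read 8.45, 9.67 and 9.73 against 7.91, 8.09 and 7.70 in AF, and 7.66, 8.73 and 7.12 against 9.32, 9.24 and 9.30 in NP. The genotypes were apart in opposite directions in the tissues, with AF and NP effects of -1.38 (adjusted p = 0.0407) and 1.45 (adjusted p = 0.296). The interaction was 2.83 (SE 0.53, adjusted p = 0.0215), and NP lay 1.44 log2 below AF in WT against 1.39 above it in TonEBP +/-. In AF of TonEBP +/- Slurp1 was above background on 1 of 3 arrays, and NP WT array 3 (7.12) barely exceeded its background level of 7.11. The reversal between the tissues therefore rests in part on signals near background. Sbsn, the gene of suprabasin, an epithelial secreted protein, read 13.19, 12.93 and 11.83 against 13.60, 13.21 and 13.69 in NP, and was at background in AF of TonEBP +/-. Its interaction was 2.42 (SE 0.44, adjusted p = 0.0192), or 1.92 at the background level.

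The order of the tissues reversed for 4 genes called below 0. NP lay above AF in WT and below it in TonEBP +/- for Tmem176b (1.43 and -0.82), Dcaf7 (1.03 and -0.63), Csf2ra, a receptor subunit for GM-CSF (0.54 and -1.87), and Aldh2, a mitochondrial aldehyde dehydrogenase (0.35 and -1.67). These are differences in log2 signal, and the test of the interaction covers their change and not each sign. Their interactions were -2.25, -1.65, -2.41 and -2.02.

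Of the osmoprotective genes, through which TonEBP is known to act, 17 were measured and 9 lay above background in both tissues. None of the 9 was called, and their median interaction was -0.17, the same as that of the 7949. They ran from -0.94 for the heat shock gene Hspa1a (adjusted p = 0.372) to 0.72 for the taurine transporter Slc6a6 (adjusted p = 0.448), with the amino acid transporter Slc38a2 at -0.69 (adjusted p = 0.484) and the kinase Sgk1 at -0.17 (adjusted p = 0.939). A p that misses the threshold does not show that these genes responded alike. Aqp1, a water channel that red cells and endothelium also carry, was outside the 9 because its NP mean lay below the background level, and it passed the test at -1.55 (adjusted p = 0.0353), or -0.98 with its background arrays set at that level. Its AF effect was 0.38 and its NP effect -1.17.

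Several other lists gave no call among the genes above background in both tissues. The 11 NP and notochord markers had a median of 0.71, led by the keratin Krt19 (2.16, adjusted p = 0.264). Krt19 read 11.37, 8.26 and 8.27 in AF of WT against 7.00, 6.25 and 8.08 in TonEBP +/-, so that its AF effect rests largely on AF WT array 1. The 16 endoplasmic reticulum genes had a median of -0.49, with Edem1 at -1.67 (adjusted p = 0.15), and the 12 glycosaminoglycan synthesis enzymes a median of 0.31. The 13 immediate early genes had a median of 0.10. Single members were left of the macrophage, B cell, T cell, skeletal muscle and mineralisation lists, 2 of the adipocyte list, 4 of the Schwann cell list and none of the endothelial list, and none of these was called. For such lists the set read here says little. Outside the set, genes of these lists that passed were the sulfotransferase gene Chst15 (-1.51), Creb3l1 of the endoplasmic reticulum list (-2.42), Jchain of the plasma cell list (-3.18), the endothelial gene Plvap (-1.88) and the mineralisation genes Ibsp (-3.38) and Mmp13 (-3.69), each with at least 1 group in which no array was above background.

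The calls depended on single arrays. Leaving out each array in turn gave 15 to 878 called clusters in place of 125. The count was 15 without AF WT array 2, 17 without NP WT array 2, 21 without NP TonEBP +/- array 2, 33 without NP WT array 1, 44 without AF WT array 3, 55 without array 1 of TonEBP +/- in AF and likewise in NP, 60 without AF TonEBP +/- array 3 and 83 without NP TonEBP +/- array 3. It was 177 without AF WT array 1, 169 without NP WT array 3, and 878 without AF TonEBP +/- array 2. The arrays that stood at the ends of the ranges were often the same: among the 106 clusters below 0, AF TonEBP +/- array 3 was the highest AF array in 84.0% (51.4% of the 7949), AF WT array 2 the lowest in 74.5% (26.5%), NP WT array 2 the highest NP array in 66.0% (14.3%) and NP TonEBP +/- array 2 the lowest in 78.3% (17.4%). Of the 106, 104 had means higher in AF and lower in NP of TonEBP +/-. Each end therefore fell mostly among the 3 arrays of 1 group and not all 6 of the tissue, so the shares in brackets are not a like comparison.

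Of the 125 clusters, 13 kept the call in all 12 omissions and under all 7 other ways of fitting: Elane, Camp, Mpo, Cybb, Ctse, Clec12a, Ly6c2, Bin2, Mki67, Ncf4, Sp100, Acan and Htra1. In at least 6 omissions, 51 did. The direction of none of the 33 called genes followed here changed in any omission, and for those outside the 13 the adjusted p passed 0.05 at its highest. Without NP WT array 2 it was 0.127 for Col1a1, 0.147 for Cd177, 0.134 for Lcp1, 0.129 for Serpina1e, 0.116 for H2ac15, 0.104 for Ifitm3 and Cdon, 0.0719 for Chil3, 0.0709 for Ncf1 and Ltf, 0.0627 for Lyz2 and 0.0586 for Ly6e. Without AF WT array 2 it was 0.11 for Anxa8, 0.0971 for P3h2, 0.095 for Slc4a1, 0.087 for Fn1, 0.0756 for Slurp1, 0.0712 for Sbsn, 0.0637 for Fmod and 0.0583 for Rrm2. For Cxcl12 it was 0.104 without NP WT array 1, for Plk1 0.104 without NP TonEBP +/- array 1, and for Ndufa4l2 0.0546 without NP TonEBP +/- array 2.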

How the data were processed

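RNA was extracted with an RNeasy Mini kit and labelled with the GeneChip WT Plus kit, per the labels' protocols. The deposited values are log2 signals of 12 arrays, made by the authors with RMA in Affymetrix Expression Console, per the submitters' processing notes. Which arrays were normalized together is not given in the sources used here. The deposited distributions are not equal across arrays, and the reason is not given in the sources used here.

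A mean for each of 4 groups was fitted with limma 3.58.1 in R 4.3.3 (lmFit, contrasts.fit, eBayes without trend, 8 residual and 7.93 prior degrees of freedom). Adjusted p-values are by Benjamini and Hochberg over 22206 clusters, after 6640 control probe sets were left out. Background was taken from 23 probe sets. Each sample is a separate animal within its group, and no 2 arrays were duplicates (smallest SD of a difference 0.414). Array numbers follow the order of deposit and pair nothing. Where a gene had several clusters, the 1 with the highest mean was used, with symbols taken from the platform annotation and RefSeq.

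Named were Nfat5, the 10 highest and 10 lowest called interactions, called members of lists, and genes called in each tissue in opposite directions. Genes named for other reasons, such as those just outside the threshold, were chosen after their values were seen. The members, the 25 lists and the rules were chosen with earlier results of these data known, and 5 lists were added after these values were seen. Other normalizations, variance models, background filters and the omission of each array were tried. The fit was tested on simulated data. Plots used matplotlib 3.10.9 (Python 3.11.15).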

Additional observations from a re-analysis of the deposited data

Results flagged for a closer look

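The genes below are those named whose genotype effect differed between the tissues by the interaction test in limma, at an adjusted p under 0.05. Each value is the genotype effect in NP minus that in AF, in log2. Lowest in NP relative to AF were Elane (-4.91), H2ac15 (-4.71), Camp (-4.50), Ncf1 (-4.39), Mpo (-4.31), Col1a1 (-4.23), Ly6e (-4.23), Cybb (-4.06), Ltf (-3.99) and Ctse (-3.96). Further genes below 0 were Chil3 (-3.87), Clec12a (-3.81), Lcp1 (-3.81), Ly6c2 (-3.68), Cd177 (-3.55), Lyz2 (-3.49), Mki67 (-3.47), Cxcl12 (-3.44), Ifitm3 (-3.08), Slc4a1 (-2.88), Rrm2 (-2.55) and Plk1 (-2.41). Above 0 were Htra1 (2.85), Slurp1 (2.83), Serpina1e (2.66), Sbsn (2.42), Anxa8 (2.31), Fmod (2.28), Cdon (2.22), Ndufa4l2 (2.18), P3h2 (2.13), Acan (2.13) and Fn1 (1.89). With 3 arrays a group, no sample was tested as an outlier.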

How the results depend on the processing

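The counts of 125 called clusters, 19 above 0 and 106 below, stayed within 1.5 times under subtracted array medians, quantile normalization within tissue, a trended and robust eBayes, 1 variance per tissue, a fit over the 7949 clusters alone, both looser background rules and a rule of 2 of 3 arrays in each group, which was chosen after seeing the data. Quantile normalization over all 12 arrays gave 121, with 30 above 0. Among the named genes, Slc4a1, H2ac15, Col1a1, Lcp1 and Anxa8 lost the call under both quantile normalizations. Serpina1e, Plk1 and Cd177 lost it under the one within each tissue. Cd177 also lost it under subtracted array medians, and H2ac15 and Col1a1 under the trended and robust eBayes. With 1 variance per tissue, H2ac15, Lcp1, Plk1 and Cd177 lost the call. With 1 weight per array there were 1325, 525 above 0 and 800 below, but the weights did not converge and 1 array took a weight of 19.9. With no background filter there were 197, of which 170 lay below 0. Leaving out 1 array at a time gave 15 to 878 in all, 3 to 323 above 0 and 12 to 555 below. Over the named genes and settings, 471 values kept their direction and side of the threshold, 174 kept the direction and lost the call, and 1 reversed: Nfat5 without AF WT array 3, at -0.16 (0.95 without AF WT array 1). No paired analysis was possible because the labels number the samples through all groups and name no mouse that gave both tissues. Signals near the array maximum limit rises, as for Acan in NP and granule genes in AF, and 13 of the 125 had a group with no array above background, so their fitted size includes signal at background and is not a bound.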

Other observations

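Outside the clusters above background in both tissues, 72 more passed the interaction test, 61 of them above background in AF alone, and 59 of those 61 lay below 0. They hold genes of bone and of provisional matrix, chosen here after their values were seen. Tnc, which encodes tenascin-C, had an AF effect of 3.78, Mmp13, the collagenase of bone and hypertrophic cartilage, 3.53, Atp6v0d2, an osteoclast proton pump subunit, 3.45, and Ibsp, bone sialoprotein, 3.00. In NP all 4 were above background on no array of either genotype, so their interactions of -3.91, -3.69, -3.78 and -3.38 rest on AF. Itgb2, the common beta 2 integrin chain, had -3.40, or -2.05 with its background arrays set at the background level, and Lum, the gene of lumican, -2.14, or -1.66.

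Genes of leukotriene synthesis and of glutathione reduction were also called among the clusters above background in both tissues. Alox5ap, which presents arachidonic acid to 5-lipoxygenase, had an AF effect of 1.92 and an NP effect of -0.46, and Lta4h, the leukotriene A4 hydrolase, 1.91 and -0.62. Gsr, glutathione reductase, had 1.20 and -1.54, and Glrx, a glutaredoxin, 1.47 and -0.66. Above 0, Fhl1, a LIM domain protein of muscle and fibroblasts, had -1.91 and 0.15, and Smoc1, a matrix-associated calcium-binding protein, -1.66 and 0.32. These genes were picked after their values were seen.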
